A study of Rattus norvegicus with 6 samples.

Results

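The renin-angiotensin system of the kidney was examined in 7 genes, namely those for angiotensinogen (Agt), angiotensin-converting enzyme (Ace), the receptors Agtr1a, Agtr1b and Agtr2, and the peptidases neprilysin (Mme) and glutamyl aminopeptidase (Enpep). The members were all probe sets, that is, groups of short probes read as 1 value, that the array annotation ties to exactly 1 of these genes. The rule found 11 of the 31042 probe sets tested, and they covered all 7 of these genes. The rule used no measured value.

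The arrays came from 3 congenic S.LEW(10)x12x2x3x5 rats and 3 Dahl salt-sensitive (S) control rats, with kidney RNA of 1 rat on each Affymetrix rat expression array. Congenic rats are S rats in which part of chromosome 10 was replaced by that of the Lewis (LEW) strain, so the strains differ over the whole LEW piece and not at a single gene. All 6 rats were males born on the same day, weaned at 30 days, given a 0.3% salt diet and killed at 53 days, and each cage held a congenic and an S rat. Whole kidney was used, in which fewer cells of a type and less RNA per cell cannot be told apart. The study's title links recycling of endosomes in tubule cells to proteinuria, and the S rat is a model of salt-sensitive hypertension.

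Angiotensinogen is cut to angiotensin I, and the converting enzyme trims this to angiotensin II. Angiotensin II acts mainly on the type 1 receptor, which raises vascular tone, sodium reabsorption and aldosterone release; rodents have a pair of genes for it, Agtr1a and Agtr1b. The type 2 receptor, Agtr2, often opposes it. Neprilysin and glutamyl aminopeptidase sit on the brush border of the proximal tubule, where neprilysin can turn angiotensin I into a shorter peptide with opposing actions and glutamyl aminopeptidase trims angiotensin II to angiotensin III.

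The promoters of the paired type 1 receptor genes are shown because a probe set of Agtr1a carried the largest change among the members while the Agtr1b probe set did not pass the test. Both sequences run from 250 bases before the gene's start to 50 bases after it, 5′ to 3′, from RefSeq on the GRCr8 rat assembly. Capitals mark matches to common core promoter motifs, each searched on both strands. These were the TATA box, spelled TATAAA, which places the start of transcription. The GC box, spelled GGGCGG, binds Sp1 and its relatives. The CCAAT box, named by its letters, appears as ATTGG where it lies on the other strand.
Agtr1a, chr17:34435383-34435682, minus strand: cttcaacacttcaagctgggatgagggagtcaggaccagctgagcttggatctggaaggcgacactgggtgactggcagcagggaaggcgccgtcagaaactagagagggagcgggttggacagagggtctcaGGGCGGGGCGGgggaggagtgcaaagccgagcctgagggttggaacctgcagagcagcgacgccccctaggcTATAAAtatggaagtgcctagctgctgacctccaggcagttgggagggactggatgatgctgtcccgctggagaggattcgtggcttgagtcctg
Agtr1b, chr2:104849213-104849512, minus strand: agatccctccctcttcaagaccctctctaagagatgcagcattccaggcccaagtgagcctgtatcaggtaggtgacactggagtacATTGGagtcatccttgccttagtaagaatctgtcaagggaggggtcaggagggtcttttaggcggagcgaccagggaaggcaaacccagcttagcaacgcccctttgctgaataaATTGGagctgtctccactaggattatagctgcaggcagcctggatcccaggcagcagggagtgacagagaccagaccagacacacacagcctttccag
The Agtr1a promoter held a TATA box 45 bases before the start and a pair of GC boxes, sharing a base, at 117 and 112 bases before it. The Agtr1b promoter held neither, and held a CCAAT box on the other strand at 163 and 48 bases before the start. Among 33469 rat promoters of the same length, 14.2% held a TATA box, 33.1% a GC box and 37.5% a CCAAT box on either strand. Promoters of 6 of the 7 genes were in the table, and that of Agt is named only. LEW and S sequences were not analysed here.

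Of the 11 probe sets 2 passed an adjusted p of 0.05 in limma's moderated test, Agt lower and the dimmer Agtr1a probe set higher in congenic rats, and 9 did not pass. Over all 31042 probe sets 6.00% were called, 3.47% higher and 2.53% lower. The groups did not overlap at 4 of the 11, against 31.2% of all probe sets. The median log2 change of the 11 was 0.07, against -0.02 over all probe sets tested, with 6 above 0 and 5 below. Counted once per gene, by its brightest probe set, the 7 genes had a median of -0.02, against -0.03 over all genes, with 3 above 0 and 4 below. The mean of those 7 probe sets was 9.62 to 9.65 in congenic and 9.66 to 9.70 in S rats. Every call given here, member or not, was lost without congenic rat 2 or without S rat 3, where limma called 0 probe sets (5575 and 6968 had an unadjusted p under 0.05).

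**Figure D1:**
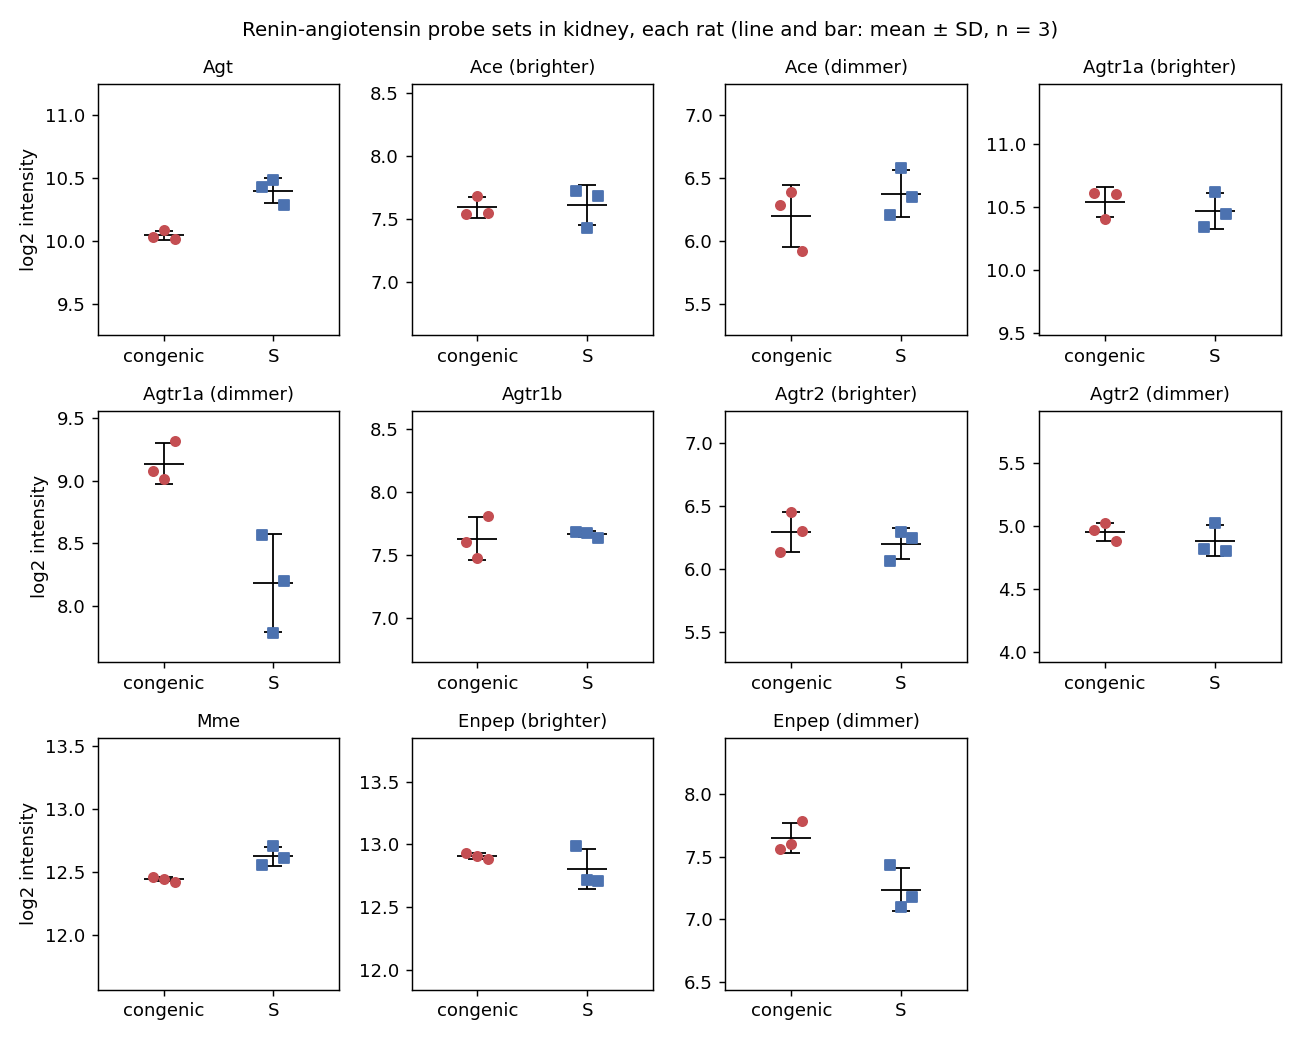
Log2 intensity of each member probe set (vertical axis, each panel spanning the same 2 log2 units) in the 3 congenic rats (circles) and the 3 S rats (squares), with mean and SD as line and bar. The groups stand apart for Agt, Mme, the dimmer Agtr1a and the dimmer Enpep probe sets, and overlap in the other 7.

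Agt, the precursor of all angiotensins, was lower in the congenic kidney. Its probe set (1387811_at) read 10.03, 10.08 and 10.01 in congenic rats 1, 2 and 3, against 10.42, 10.48 and 10.28 in S rats 1, 2 and 3 (log2 intensity). Every congenic rat lay below every S rat, and the congenic values were the closer together. The means were 10.04 ± 0.04 in congenic and 10.40 ± 0.10 in S rats (SD, n = 3 each). The log2 change of -0.35 ± 0.07 (SE) is a ratio of 0.782 with a 95% interval of 0.697 to 0.877, and passed limma's test (adjusted p = 0.0341). The call was kept without S rat 1 (adjusted p = 0.0284) and lost without each of the others in turn, namely congenic rat 1 (adjusted p = 0.0827), congenic rat 2 (adjusted p = 0.116), congenic rat 3 (adjusted p = 0.153), S rat 2 (adjusted p = 0.0643) and S rat 3 (adjusted p = 0.0849), while the log2 change stayed between -0.41 and -0.31.

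Markers of other tissues that make angiotensinogen were read beside Agt. Fat makes it too, and of 8 adipose markers measured, all lay below 0 and 1 fell: Cidec, a lipid droplet protein, at -0.61 (adjusted p = 0.0202). Over all genes, each by its brightest probe set, 2.12% rose and 2.67% fell. The adipose list's mean log2 level was 8.29 to 8.69 in congenic and 8.70 to 9.25 in S rats, without overlap, and its median change was -0.50, or -0.23 with a term for the RNA quality measure described further on. With that term 6 of the 8 lay below 0 and 2 above. Ucp1, the heat-producing protein of brown fat, stood at -1.14 (adjusted p = 0.0507), Plin1, which coats lipid droplets, at -0.66 (adjusted p = 0.0951), and the abundant Lpl, a lipase, at -0.21 (adjusted p = 0.191). Their part in the Agt difference was not tested. Liver is the main source of circulating angiotensinogen, and the mean level of 6 hepatocyte markers overlapped, at 6.90 to 7.10 in congenic and 6.80 to 6.96 in S rats. Alb, the defining albumin gene, read 6.15 on average in congenic and 6.18 in S rats, not far above the arrays' lower quartile of 5.88 to 5.96, while Fgb, a fibrinogen chain, rose by 0.48 (adjusted p = 0.0214). Serpina1 stood at 0.06 (adjusted p = 0.690), Ttr, the thyroxine carrier, at 0.14 (adjusted p = 0.427), and the abundant Apoc3 at 0.00020. The kidney's own proximal tubule markers are given further on, where 3 of 14 rose and Slc22a7 fell. The part of proximal tubule cells in the Agt difference was not tested either.

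Agtr1a, the main renal angiotensin receptor gene, gave different answers at its 2 probe sets. The dimmer probe set (1369291_at) read 9.08, 9.01 and 9.32 in congenic rats 1, 2 and 3, against 8.57, 7.79 and 8.20 in S rats 1, 2 and 3. All congenic values lay above all S values, and S rat 2 was the lowest. The means of 9.14 ± 0.16 in congenic and 8.19 ± 0.39 in S rats (SD, n = 3 each) differ by 0.95 ± 0.18 (SE), a ratio of 1.93 with a 95% interval of 1.46 to 2.55, and the probe set was called (limma, adjusted p = 0.0298). The brighter probe set (1384240_at) read 10.61, 10.40 and 10.60 in congenic rats, against 10.34, 10.62 and 10.45 in S rats. Those groups overlapped, with S rat 2 now the highest of all. Its log2 change of 0.07 ± 0.09 (SE) did not pass (adjusted p = 0.703), and its ratio of 1.05 had an interval of 0.906 to 1.22, which ends below that of the dimmer probe set.

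The unequal change of the Agtr1a probe sets was seen within each array. The dimmer minus the brighter value was -1.41 ± 0.13 in congenic and -2.28 ± 0.53 in S rats (log2, SD, n = 3 each), a difference of 0.88. The groups did not overlap, and a two-sided exact permutation test gave p = 0.1, below which 3 rats against 3 cannot go. For Ace and Agtr2 the dimmer minus the brighter value overlapped between groups. The group difference was -0.16 for Ace (two-sided exact permutation test, p = 0.6) and -0.02 for Agtr2. The dimmer Agtr1a probe set was designed on the RefSeq transcript NM_030985 and the brighter on the expressed sequence tag BI290306, per the array annotation. Where the Agtr1a probes lie in the transcript was not analysed here. The call of the dimmer probe set was kept without S rat 1 (adjusted p = 0.00159) or S rat 2 (adjusted p = 0.0282). It was lost without congenic rat 1 (adjusted p = 0.0667), congenic rat 2 (adjusted p = 0.103), congenic rat 3 (adjusted p = 0.137) or S rat 3 (adjusted p = 0.0997), with log2 changes between 0.75 and 1.14.

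A measure of RNA quality differed between the groups, and within S rats the dimmer Agtr1a value descended as it grew. For beta-actin and Gapdh the array has control probe sets at the 3′ and at the 5′ end, and their distance grows when RNA is broken or copied short. Averaged over both genes, this distance was 1.26, 1.01 and 1.08 in congenic rats 1, 2 and 3, against 1.56, 2.10 and 1.70 in S rats 1, 2 and 3 (log2), without overlap (exact permutation p = 0.1, two-sided). S rat 2, with the largest distance, had the lowest dimmer Agtr1a value, and S rat 1, with the smallest distance in its group, had the highest of the S rats. That order did not hold in congenic rats, where rat 2, with the smallest distance, had the lowest value (9.01). Agt did not follow the distance in S rats, at 10.42 in rat 1, 10.28 in rat 3 and 10.48 in rat 2. With the distance as a term in limma's model the dimmer Agtr1a probe set stood at 0.20 ± 0.24 (SE, adjusted p = 0.937) and the brighter at 0.43 ± 0.14 (adjusted p = 0.549), so both were above 0 and neither passed. Agt stood at -0.26 ± 0.15 (adjusted p = 0.781). No probe set of the whole array passed with that term, where 2292 had an unadjusted p under 0.05. The term itself separates the groups, so RNA quality and strain cannot be told apart here.

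**Figure D2:**
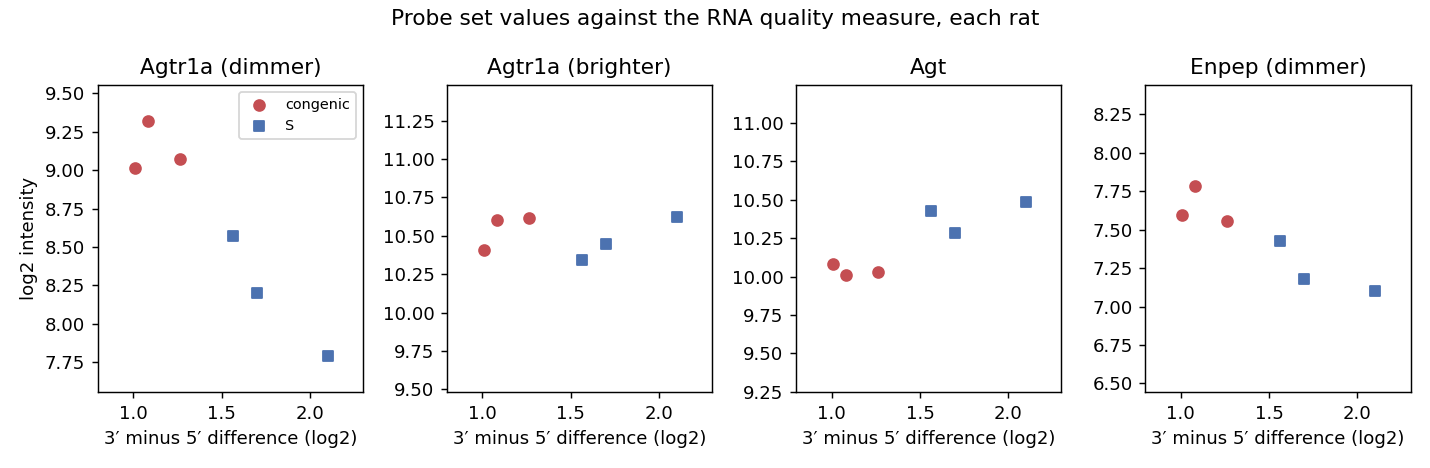
Log2 intensity (vertical axis, each panel spanning 2 log2 units) against the 3′ minus 5′ control distance (horizontal axis, log2) for 4 probe sets in congenic (circles) and S rats (squares). In S rats the dimmer Agtr1a values descend as the distance grows, with S rat 2 at 2.10 and 7.79, while the brighter Agtr1a probe set has its highest value in that rat. That order does not hold in congenic rats, where rat 2 stands at 1.01 and 9.01, and Agt does not follow the distance in S rats.

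The other receptor genes did not pass. Agtr1b, which in rats is best known from adrenal and pituitary, read 7.60, 7.48 and 7.81 in congenic rats, against 7.68, 7.68 and 7.64 in S rats (1369439_at). The congenic values lay on both sides of the S values. Its log2 change of -0.03 had a ratio interval of 0.848 to 1.13 (adjusted p = 0.863). Agtr2, which is abundant in the fetal kidney, read 6.13 to 6.45 in congenic and 6.06 to 6.29 in S rats at the brighter probe set (1369711_at), and 4.88 to 5.02 in congenic and 4.81 to 5.03 in S rats at the dimmer (1398288_at). The dimmer was below the lower quartile of every array and the brighter just above it. Their log2 changes were 0.09 and 0.07 (adjusted p = 0.619 and adjusted p = 0.650), with ratio intervals of 0.913 to 1.25 and 0.924 to 1.20.

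Adrenal tissue, where Agtr1b and Agtr2 are also made, was looked for by its markers. Of 9 measured, Hsd3b1, a steroid dehydrogenase, fell by 0.57 (adjusted p = 0.0369) and 8 did not pass, where 2.67% of all genes fell. The mean level of the list was 6.15 to 6.18 in congenic and 6.21 to 6.35 in S rats, without overlap. Cyp21a1, the steroid 21-hydroxylase, stood at -0.31 (adjusted p = 0.0978) and Pnmt, which makes adrenaline, at -0.15 (adjusted p = 0.285). Cyp11b1, the defining enzyme of the cortex, read 4.39 on average in congenic and 4.44 in S rats, below the lower quartile of every array.

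Ace, which makes angiotensin II and is the member on chromosome 10, did not pass at either probe set. The brighter (1387791_at) read 7.54, 7.69 and 7.55 in congenic rats, against 7.72, 7.43 and 7.68 in S rats. The S rats spanned the congenic values. Its log2 change was -0.02 ± 0.09 (SE), with a ratio of 0.987 and an interval of 0.855 to 1.14 (adjusted p = 0.934). The dimmer (1370028_at) read 6.28, 6.39 and 5.92 in congenic rats, against 6.21, 6.58 and 6.34 in S rats, also with overlap, for a log2 change of -0.18 ± 0.13 (adjusted p = 0.467) and an interval of 0.714 to 1.09. With the RNA quality term the pair parted, at -0.38 and 0.19 (adjusted p = 0.559 and adjusted p = 0.942).

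By gene order on GRCr8, 318 measured genes of chromosome 10 lay between Ace and Rffl, the endosomal ubiquitin ligase gene known from work on this chromosome in S rats. The limits of the LEW piece were not placed here, so whether Ace lies inside it was not analysed. Of the 10 measured genes on either side of Ace, 2 of 20 were called: Kansl1, a chromatin regulator (-0.30, adjusted p = 0.0442), and Cdc27, a subunit of the anaphase-promoting complex (0.30, adjusted p = 0.0458), which were chosen for mention after their values were seen. Over all genes, each by its brightest probe set, 4.79% were called. The nearest neighbours, Cyb561 and Kcnh6, stood at -0.15 and 0.02 (adjusted p = 0.234 and adjusted p = 0.889). Endothelium holds much of the body's converting enzyme, and the mean level of 9 endothelial markers was 9.51 to 9.52 in congenic and 9.50 to 9.52 in S rats. Of these, Vwf, the clotting factor carrier, fell by 0.54 (adjusted p = 0.0235), Flt1 and Kdr, receptors of vascular endothelial growth factor, stood at 0.29 and 0.28 (adjusted p = 0.0865 and adjusted p = 0.124), and the abundant Emcn and Esam at -0.02 and -0.14 (adjusted p = 0.880 and adjusted p = 0.200).

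Mme and Enpep, the brush border peptidases, did not pass at any of their 3 probe sets, of which 2 were bright and 1, of Enpep, was dim. Mme (1370072_at) read 12.46, 12.45 and 12.42 in congenic rats, against 12.55, 12.71 and 12.61 in S rats. All congenic values lay below all S values, yet the log2 change of -0.18 ± 0.07 (SE, ratio 0.881, interval 0.793 to 0.978) did not pass after adjustment (unadjusted p = 0.0234, adjusted p = 0.128). The bright Enpep probe set (1368512_a_at) read 12.93, 12.91 and 12.88 in congenic rats, against 12.98, 12.72 and 12.71 in S rats. S rat 1 lay above every congenic rat and the other S rats below them, and the log2 change of 0.11 ± 0.09 did not pass (adjusted p = 0.500). The dimmer Enpep probe set (1368513_at) read 7.56, 7.60 and 7.78 in congenic rats, against 7.43, 7.10 and 7.18 in S rats. It did not overlap, and its log2 change of 0.41 ± 0.10 (ratio 1.33, interval 1.13 to 1.56) just missed the threshold (adjusted p = 0.0518). This probe set was called without S rat 1 (adjusted p = 0.00758). In that setting 4752 probe sets were called over the whole array, against 1862 with every rat. Without congenic rats 1, 2 and 3 in turn it was not called (adjusted p = 0.0858, 0.151 and 0.195). Nor was it without S rat 2 (adjusted p = 0.109) or S rat 3 (adjusted p = 0.142).

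The RNA quality term also moved the changes of the peptidases. With that term Mme stood at -0.02, the bright Enpep probe set at -0.09 and the dimmer one at 0.08 (adjusted p = 0.988, adjusted p = 0.965 and adjusted p = 0.971). Within arrays the dimmer minus the brighter Enpep value was -5.26 ± 0.14 in congenic and -5.57 ± 0.04 in S rats (log2, SD, n = 3 each), a difference of 0.30, again without overlap (two-sided exact permutation, p = 0.1). As a description over the 6 arrays, which share their RNA and labelling between probe sets, the dimmer Enpep and dimmer Agtr1a probe sets had a Pearson r of 0.98, and Mme and the dimmer Agtr1a probe set one of -0.99. Agt and Mme had an r of 0.90.

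**Figure D3:**
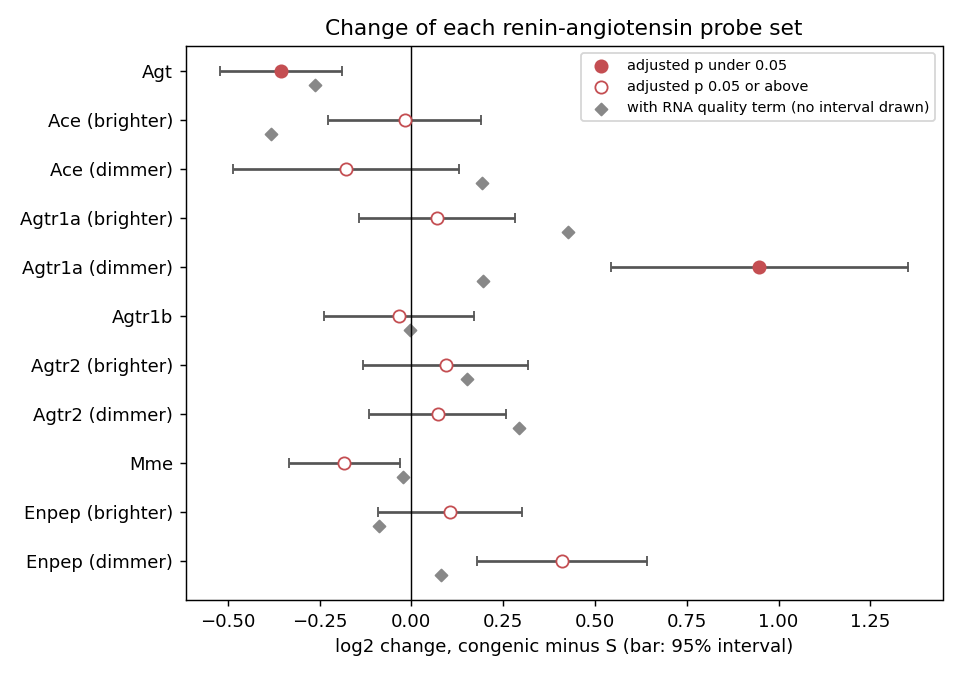
Log2 change, congenic minus S (horizontal axis), of the 11 probe sets with 95% intervals from limma; filled circles passed an adjusted p of 0.05, and grey diamonds give the change with the RNA quality term. Agt at -0.35 and the dimmer Agtr1a probe set at 0.95 are the called members, and the diamond of that Agtr1a probe set lies at 0.20.

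The proximal tubule cells that carry these peptidases were present in all kidneys by their markers. Kap and Miox, the most abundant of 14 measured, averaged 14.92 and 14.53 in congenic and 14.94 and 14.53 in S rats, with changes of -0.03 and -0.0085 (adjusted p = 0.852 and adjusted p = 0.954). Of the 14, 3 rose and 1 fell: the lactate and organic anion transporters Slc5a12 (2.28, adjusted p = 0.0224) and Slc22a8 (1.65, adjusted p = 0.0265) rose with Slc5a2, a glucose transporter (1.67, adjusted p = 0.0333), and Slc22a7, of the late proximal tubule in rodents, fell by 0.50 (adjusted p = 0.0276). Over all genes 2.12% rose and 2.67% fell. The mean level of the list was 12.41 to 12.63 in congenic and 11.89 to 12.28 in S rats, without overlap. With the RNA quality term the list's median change was 0.03, against 0.14 without it, and Slc5a12 stood at 1.33, Slc22a8 at 0.59 and Slc5a2 at 0.60. Podocytes carry glutamyl aminopeptidase too, and none of 8 podocyte and mesangial markers passed in limma, with 1 at an unadjusted p under 0.05. Ptpro stood at 0.94 (adjusted p = 0.133), Podxl at 0.23 (adjusted p = 0.277), Gata3 at -0.14 (adjusted p = 0.282) and the abundant Synpo at 0.35 (adjusted p = 0.387), and the list's mean level overlapped, at 9.14 to 9.25 in congenic and 8.22 to 9.34 in S rats. The largest podocyte changes were those of Nphs1, which encodes nephrin (1.19, adjusted p = 0.290), and the transcription factor Wt1 (1.05, adjusted p = 0.333). Both were lowest in S rat 2, at 5.67 and 5.05, and turned to -1.63 and -1.78 with the RNA quality term, where the list's median was -0.16, against 0.29 without the term. What part these shifts have in the peptidase values was not tested.

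Other peptidases and receptors of the angiotensin pathway were listed with earlier results of these data known, and 13 of 17 were measured. None was called by limma in either direction, against 4.79% of all genes, and 3 had an unadjusted p under 0.05. Cltrn, which encodes collectrin, a relative of converting enzyme 2 that lacks its peptidase part, read 13.33, 13.24 and 13.34 in congenic rats, against 13.11, 12.92 and 13.01 in S rats, without overlap (0.29, adjusted p = 0.0531). Rnpep, aminopeptidase B, stood at -0.18 (adjusted p = 0.165), and Anpep, the brush border aminopeptidase N that trims angiotensin III, at -0.15 (adjusted p = 0.190). Over the 13 genes the median was 0.04, against -0.03 over all genes. It was 0.019 without S rat 2, 0.014 with the RNA quality term and 0.11 when each gene was read by its probe set of highest SD.

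Genes of the granular cells of the afferent arteriole, and of the signals that control those cells, formed another list. Of 26 measured, 2 rose, none fell and 24 did not pass, where 2.12% of all genes rose and 2.67% fell. Pde3b, a phosphodiesterase that breaks down cyclic AMP, read 8.11, 7.84 and 7.87 in congenic rats, against 7.48, 7.23 and 7.34 in S rats (0.59, adjusted p = 0.0224). Adrb1, the beta-1 adrenergic receptor, which answers sympathetic nerves, read 6.61, 6.68 and 6.56 in congenic rats, against 6.32, 6.30 and 6.40 in S rats (0.28, adjusted p = 0.0484). Neither overlapped. Vdr, the vitamin D receptor, stood at 0.32 (adjusted p = 0.0503). The median over this list was 0.04. It was -0.02 without S rat 2 or with the RNA quality term, 0.07 without S rat 1 and 0.08 when each gene was read by its probe set of highest SD.

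Signalling genes downstream of the type 1 receptor included 4 that rose and none that fell among 26 measured, where 2.12% of all genes rose and 2.67% fell. Nox4, the NADPH oxidase of kidney tubules, read 9.49, 9.06 and 9.30 in congenic rats, against 8.68, 8.11 and 8.15 in S rats, and did not overlap (0.97, adjusted p = 0.0235). Cyba, the p22phox subunit it needs, read 10.98, 10.85 and 11.03 in congenic rats, against 10.45, 10.22 and 10.13 in S rats (0.69, adjusted p = 0.0179). Rock1, a kinase that acts on the cytoskeleton, rose by 0.37 (adjusted p = 0.0412), as did Jak2, a tyrosine kinase named after its value was seen, by 0.66 (adjusted p = 0.0447). With the RNA quality term Nox4 was at 0.70 and Cyba at 0.57, while Rock1 was at 0.06 and Jak2 at 0.20. The list median was 0.02, with 14 genes above 0 and 12 below, and its sign was not settled. It was -0.03 when S rat 3 and 0.07 when congenic rat 2 was left out, the lowest and highest of such values. It was 0.13 with the RNA quality term, where 22 genes lay above 0 and 4 below. It was 0.11 when each gene was read by its probe set of highest SD.

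Of 16 measured genes listed as angiotensin II response genes, without a direction set for each, 4 rose, none fell and 12 did not pass. Over all genes 2.12% rose and 2.67% fell. The list median was 0.25, against -0.03 over all genes. Above 0 lay 15 of the 16, but 9 of the 16 with the RNA quality term, where the median was again 0.25. Tgfb1, the fibrosis cytokine, read 9.44, 9.50 and 9.63 in congenic rats, against 8.96, 8.82 and 8.94 in S rats (0.62, adjusted p = 0.0162). Col4a1, a basement membrane collagen gene (0.45, adjusted p = 0.0220), Spp1, which encodes osteopontin (0.48, adjusted p = 0.0224), and Col1a1, a fibrillar collagen gene (0.44, adjusted p = 0.0270), rose with it. Klk1, the kinin-releasing tissue kallikrein, chosen after its values were seen, read 11.72, 11.49 and 11.51 in congenic rats, against 11.50, 7.25 and 10.20 in S rats. S rat 2 was far the lowest. Its change of 1.92 did not pass (adjusted p = 0.208) and turned to -2.25 with the RNA quality term. These are genes with many regulators, and the list is not a readout of angiotensin II alone.

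**Figure D4:**
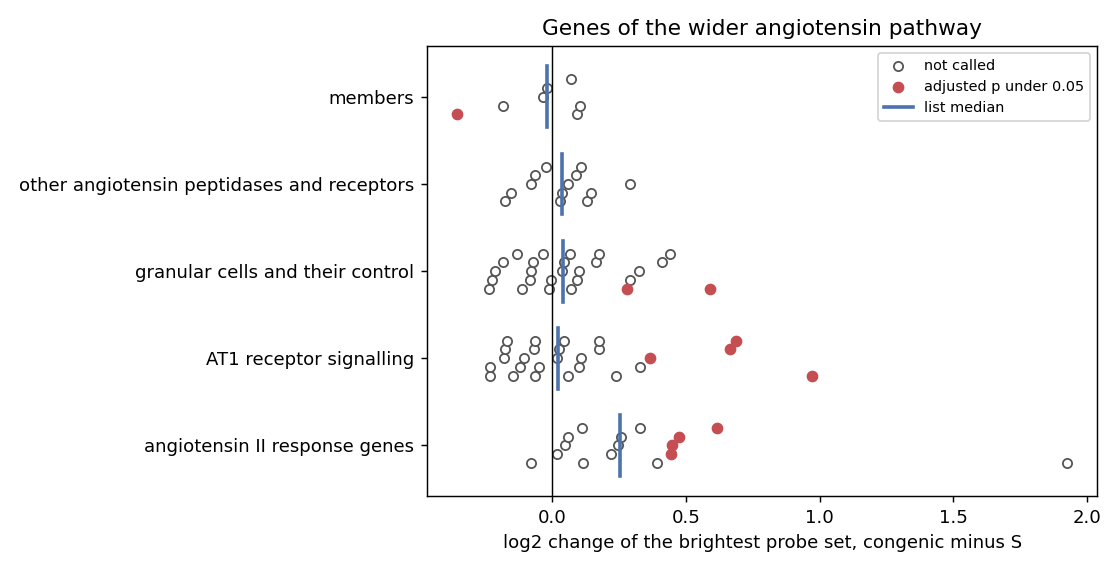
Log2 change, congenic minus S (horizontal axis), of the brightest probe set of each gene in 5 lists, with called genes filled and a line at each list's median. The response genes have the median farthest from 0, at 0.25, while other peptidases and receptors have no called gene; vertical scatter within a list only separates points.

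Markers of cells that make collagen and Tgfb1 shifted beside the response genes. Of 6 fibroblast markers 4 rose, where 2.12% of all genes rose. They were Lum, a matrix proteoglycan (1.76, adjusted p = 0.0103), Fbln5, of elastic fibres (0.58, adjusted p = 0.0179), Dcn, which encodes decorin (0.57, adjusted p = 0.0238), and Col1a1. Col1a1 is also counted among the response genes above, so the lists share a gene that rose. The abundant Col3a1 stood at 0.23 (adjusted p = 0.230). The mean level of the list was 11.56 to 11.71 in congenic and 10.99 to 11.06 in S rats, without overlap. Of 8 macrophage markers 4 rose: Cd14 (0.39, adjusted p = 0.0212), the complement genes C1qb (0.46, adjusted p = 0.0235) and C1qa (0.42, adjusted p = 0.0373), and Lyz2 (0.35, adjusted p = 0.0340), with a mean level of 9.24 to 9.36 in congenic and 8.95 to 9.23 in S rats. The abundant Csf1r stood at -0.04 (adjusted p = 0.842). None of 7 vascular smooth muscle markers passed in limma, 3 having an unadjusted p under 0.05, with Tagln at 0.34 (adjusted p = 0.0540), Des at 0.39 (adjusted p = 0.105), Acta2 at 0.57 (adjusted p = 0.163) and Mylk at 0.06 (adjusted p = 0.676), at a mean level of 10.05 to 10.20 in congenic and 9.59 to 10.06 in S rats. Of 8 distal nephron markers Slc4a1, the anion exchanger of intercalated cells, fell by 0.28 (adjusted p = 0.0463), where 2.67% of all genes fell. The mean level of that list was at least 11.95 in every congenic rat and 10.92 to 12.07 in S rats, with S rat 2 the low one. Scnn1g stood at 0.29 (adjusted p = 0.139), Calb1 at 1.62 (adjusted p = 0.290), Umod at -0.10 (adjusted p = 0.343) and Slc12a1 at -0.11 (adjusted p = 0.449). Fitted with RNA quality, the median change was 0.60 for fibroblast markers, against 0.51 without it, and 0.47 for macrophage markers, against 0.24. It turned to -0.24 for smooth muscle markers, against 0.33, and to -0.23 for distal nephron markers, against 0.10. Their part in the response genes was not tested.

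Genes whose pattern over the 6 arrays was most like that of a member were found among 5608 others by Pearson correlation, as a description over arrays that share a strain contrast and an RNA quality difference. The nearest to Agt were Ube2e2 (r = 0.992), Afm, which encodes afamin (r = 0.992), and Cldn16, a claudin of the thick ascending limb (r = 0.991). Mme was nearest to Ndc1, Wdr36 and Polr3a, each at an r of 0.999. The brighter Agtr1a probe set was nearest to Icam2, an endothelial adhesion gene (r = 0.984), Cerk (r = 0.968) and Itgal, a leukocyte integrin gene (r = 0.967). The bright Enpep probe set was nearest to Ptprv (r = 0.999), Gtpbp3 (r = 0.986) and Ncald (r = 0.983). Of these 12, Cldn16 (-0.35, adjusted p = 0.0340), Ndc1 (-0.46, adjusted p = 0.0369) and Wdr36 (-0.38, adjusted p = 0.0488) were called, all lower in congenic rats. Over all genes 4.79% were called. Cldn16 was picked for likeness to Agt, and Ndc1 and Wdr36 for likeness to Mme. Both members were lower in every congenic rat than in every S rat, so that direction followed from the choice.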

How the data were processed

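Per the labels' protocols, each array received biotinylated cRNA made from the kidney RNA of 1 rat. Deposited values are log2 intensities of 31099 probe sets that the authors had brought to a common scale, judged from array medians of 7.47 to 7.50. How probes were summarised is not given in the sources used here. P-value adjustment by Benjamini-Hochberg in R 2.8.1 is stated in the series' text. Arrays give no counts, and the number of rats limits the precision.

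After 57 control probe sets were left out, 31042 were compared between groups on the log2 scale by limma 3.58.1 under R 4.3.3, with two-sided moderated tests (4 residual degrees of freedom, 8.49 with the prior) adjusted over all 31042 at 0.05. Symbols came from the platform annotation and were updated through Entrez identifiers to names of GRCr8. A single symbol was had by 20826 probe sets, several by 436, and 9780 were not listed. In gene lists the probe set with the highest mean stood for its gene, and lists were described by counts and medians without a set test. A further member is not reported here. The members and lists were chosen with earlier results of these data known.

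The text names every member probe set, up to 3 genes of each list with the smallest p, the 2 most abundant markers of each cell type, and the 3 genes most like each member whose brightest probe set lay above every array's median. Candidates for likeness had a mean above the median intensity and an SD of at least 0.1. Slc5a2, C1qa, Col1a1, Jak2, Klk1, Alb, Cyp11b1, Nphs1, Wt1, Kansl1, Cdc27, Cyb561 and Kcnh6 were added after their values were seen. Array correlations ran from 0.985 to 0.998. S rat 1 correlated at 0.9966 with congenic rat 1, against 0.9964 with S rat 3 and 0.992 with S rat 2. The RNA quality distance and within-array differences were compared by exact permutation. Other settings tried were leaving out each rat, the RNA quality term, the rat number as a block, 1 probe set per gene (for list medians also the most variable one), array weights, an unmoderated test, robust eBayes, a trend of variance with intensity, a filter at percentile 40 of intensity, centring on medians and quantile normalization. The method was tested on simulated data. Plots used matplotlib 3.10.9 (Python 3.11.15).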

Additional observations from a re-analysis of the deposited data

How the results depend on the processing

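Of the 11 probe sets, 2 were called in limma, 4 with array weights and 0 with an unmoderated test or with the RNA quality term, where 4 and 2 had an unadjusted p under 0.05. The 2 with the RNA quality term were the brighter Agtr1a and the brighter Ace probe sets, neither called without it. Agt and the dimmer Agtr1a probe set then had unadjusted p of 0.109 and 0.446 in limma. With the brightest probe set of each gene, which leaves out the dimmer Agtr1a probe set, 1 of 7 was called, that of Agt. Leaving out a rat gave 0 to 3 called members. Over the whole array 1862 probe sets were called, 6077 with array weights, 666 of 14217 with 1 probe set per gene, 0 with an unmoderated test (6166 with an unadjusted p under 0.05), 0 with the RNA quality term and 0 to 4752 without a rat. Agt and the dimmer Agtr1a probe set kept their sign under every alternative they entered. Signs that turned were those of members that did not pass: the brighter Ace probe set (-0.11 to 0.037 when a rat was left out), the dimmer Ace probe set (0.19 with the RNA quality term), Agtr1b (0.045 with array weights, -0.12 to 0.042 without a rat) and the bright Enpep probe set (-0.088 with the RNA quality term); the cause was not tested. Array weights called Mme (adjusted p = 0.0458), and the dimmer Enpep probe set passed with median centring (adjusted p = 0.0499), the intensity filter (adjusted p = 0.0464), an intensity trend (adjusted p = 0.0488), robust eBayes (adjusted p = 0.0495) and array weights (adjusted p = 0.00520). Some settings left that Enpep probe set uncalled. Its adjusted p was 0.0554 with quantile normalization and 0.0899 with the rat number as a block. It was 0.222 with an unmoderated test and 0.971 with the RNA quality term.

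The rat number does not pair the rats in the labels, and deviations of same-numbered rats from their group means correlated at -0.01, -0.18 and -0.14. Over all 9 pairs of a congenic with an S rat these correlations ran from -0.25 to 0.38, and no rat correlated best with its own number. With the number as a replicate block 658 probe sets and 1 member were called, the dimmer Agtr1a probe set (adjusted p = 0.0357), with Agt at adjusted p = 0.0648. Which rats shared a cage is not given in the sources used here. Detection calls were not used, so the dim Agtr2 and Ace probe sets limit what can be said of those genes.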
